A study of Canis lupus familiaris with 34 samples.

Results

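The HOX genes of the A, B, C and D clusters were examined together with the MEIS, PBX and TBX genes in canine osteosarcoma, the malignant tumour of bone-forming cells in dogs. Membership was taken from the array annotation: every gene symbol that began with HOXA, HOXB, HOXC or HOXD, or with MEIS, PBX or TBX followed by a digit. This gave 39 genes of the 15115 genes with a probe set of a single symbol. The 39 were 7 HOXA, 8 HOXB, 5 HOXC, 1 HOXD, 3 MEIS, 3 PBX and 12 TBX genes. The D cluster was seen through HOXD10 alone, and the other clusters with gaps, since some of their genes were not analysed here.

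RNA of 34 samples, which came from 31 dogs, had been hybridised to Affymetrix Canine_2 arrays. Of these, 25 were cultures grown from primary tumours, 3 were cultures grown from metastases and 6 were pieces of frozen primary tumour. The lines from primary tumours came from 10 Rottweilers, 7 Golden Retrievers and dogs of other or unknown breed, with 13 arrays from males and 11 from females. The 3 metastatic lines came from 2 Rottweilers and 1 Rhodesian Ridgeback, 2 of them male and 1 female. The tissues came from 3 Golden Retrievers, a Belgian tervuren, a Borzoi and a Great Pyrenees, 1 male and 5 females. The age at diagnosis on the labels ran from 2 to 11.19 in dogs of the primary lines, from 2.39 to 6.31 in those of the metastatic lines and from 2.67 to 11.91 in those of the tissues, with no unit. Treatment labels of the dogs (SOC, AMP, PALL, ABX or none) are abbreviations that the labels do not spell out, and were not used here. The bone or site each tumour arose from was not known here. Dog 22 gave primary lines 19 and 22 and tissue 5, and dog 23 gave primary line 20 and tissue 6. The arrays of primary lines 19 and 22 were averaged for every comparison, which left 24 primary lines and 27 lines in all.

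HOX genes encode homeodomain transcription factors that are switched on in order along each cluster, the low-numbered genes towards the head and the high-numbered genes towards the tail and the limb tips. Mesenchymal cells of the adult are known to keep part of this code as a record of where in the body they arose. MEIS and PBX proteins are homeodomain partners of the TALE class that bind DNA together with HOX proteins, and TBX genes encode T-box factors, among them TBX5 of the forelimb and TBX4 of the hindlimb.

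Levels are given as log2 of the intensity that the authors made with GCRMA, a background and normalization method for Affymetrix arrays. A value over log2 5 is used as a working mark of signal, and levels of different genes are not set against each other because each probe set has its own brightness. A gene was tested where a probe set was over log2 5 on at least 3 arrays, which 7849 genes met. The median linear intensity of an array lay between 8.06 and 8.51 for primary lines, between 8.08 and 8.37 for metastatic lines and between 8.28 and 8.67 for tissues. Actin signal at the 3′ end minus that at the 5′ end (log2), which grows as RNA degrades, had medians of 1.33, 0.65 and 2.58 in these groups. Sample titles carried 1 of 3 prefixes. The first was on primary lines 1 to 4, the second on 19 primary lines and all 3 metastatic lines, and the third on primary lines 22 and 23 and the 6 tissues; they are called title prefix 1, 2 and 3. COL1A1, the bone and connective tissue collagen chain, was over log2 11 in all lines and tissues (11.88 to 14.08 in primary lines), and RUNX2, a transcription factor of osteoblasts, was over log2 5 in 5 of 24 primary lines, 0 of 3 metastatic lines and 1 of 6 tissues. Primary line 4 stood apart. It carried the endothelial transcripts PECAM1 and EMCN at 13.88 each, against medians of 2.52 and 2.37 over the 24 primary lines, and the lowest COL1A1 of the lines at 11.88. The arrays of primary lines 5 and 9, both Rottweiler lines but labelled with different dogs, correlated at 0.979 over all genes tested, more closely than the line arrays of dog 22 (0.919). Without primary line 9 the difference of HOXA4 between lines and tissues was -1.72 (limma adjusted p = 0.0108), that of MEIS1 between metastatic and primary lines 2.92 (limma adjusted p = 0.211), and 0 position genes were called between breeds.

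**Figure D1:**
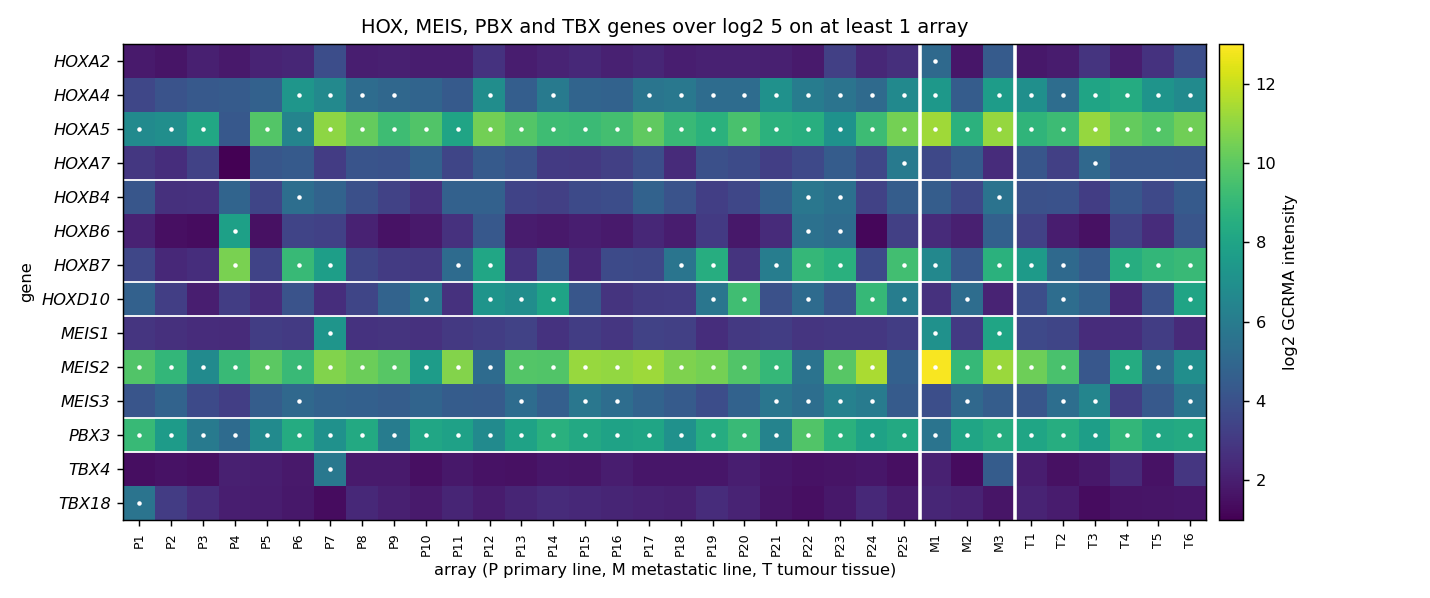
Log2 GCRMA intensity (colour) of the 14 genes that exceeded log2 5 on at least 1 array (rows, by cluster or family) on the 34 arrays (columns; P primary line, M metastatic line, T tumour tissue), with a white dot where the value is over log2 5. PBX3 carries a dot on all 34 arrays, HOXA5 on 33 and MEIS2 on 32, while HOXB7, HOXD10 and MEIS3 differ from line to line.

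Most position genes gave no signal. Of the 39 genes, 14 exceeded log2 5 on at least 1 array and 10 passed the filter: HOXA4, HOXA5, HOXB4, HOXB6, HOXB7, HOXD10, MEIS1, MEIS2, MEIS3 and PBX3. The other 29 did not pass and were not tested, and 25 of them never exceeded log2 5, with highest values from 1.35 (TBX10) to 4.85 (HOXC8). By cluster, 4 of 7 HOXA, 3 of 8 HOXB, 0 of 5 HOXC and 1 of 1 HOXD genes were over log2 5 somewhere. The numbers for MEIS, PBX and TBX genes were 3 of 3, 1 of 3 and 2 of 12. Between 3 and 9 of the genes were over the mark on a primary line array (median 5), 5 to 7 on a metastatic line (median 7) and 5 to 7 on a tissue (median 5). For HOX genes alone these counts were 1 to 6 (median 2), 2 to 4 (median 4) and 3 to 4 (median 3). A probe set that stays low may lack the transcript or may not detect it, and these cannot be told apart here.

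At the head end of the clusters, HOXB1 and HOXB2 reached at most 2.55 and 2.97. HOXA2, which patterns the second branchial arch, was over log2 5 on 1 array, metastatic line 1, at 5.09. At the tail end the highest values were 4.57 for HOXA9, 3.23 for HOXA13, 2.73 for HOXB9 and 4.48 for HOXB13, and HOXC10, HOXC12 and HOXC13 reached 3.15, 2.97 and 2.39. No measured gene numbered 9 or above in the A, B or C clusters was thus over the mark on any array. HOXD10, a posterior gene of trunk and limb, was the only such gene with signal. Read along the clusters, the highest-numbered HOXA gene over log2 5 was HOXA5 on most arrays and HOXA7 on 2 (primary line 25 at 5.94 and tissue 3 at 5.04), and the highest-numbered HOXB gene was HOXB7. HOXA3 (at most 2.23) and HOXB8 (at most 2.74), which lie beside genes that were measured with signal, stayed low on every array. Of the genes that never passed the mark, HOXC8 had the highest value, 4.85 in primary line 11, on a probe set whose gene identifier is no longer in the current gene table, while the probe set with the current identifier reached at most 2.69.

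HOXA5, a gene of the neck and upper trunk, was the most widely carried HOX gene. It was over log2 5 on 33 of 34 arrays. In the 24 primary lines its level ran from 4.30 through a median of 9.24 to 10.95, in the metastatic lines it was 11.31, 8.73 and 11.08 for lines 1, 2 and 3, and in the 6 tissues it ran from 8.84 through 9.96 to 11.09. The exception was primary line 4 at 4.30, well apart from the next lowest line at 6.39. The 4 lines of title prefix 1 averaged 6.53 ± 1.62 (SD) and the 19 columns of title prefix 2 9.38 ± 1.01, so HOXA5 differed along with the title prefix, whose part in the spread was not tested.

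HOXB7, another trunk gene, split the lines. It was over log2 5 in 10 of 24 primary lines and in 2 of 3 metastatic lines. The primary lines ran from 2.35 through a median of 3.68 to 10.59, with primary line 4 highest, followed by primary line 25 at 9.37 and primary line 6 at 9.10. The tissues were at 7.54, 5.08, 4.44, 8.48, 8.95 and 9.15 for tissues 1 to 6, so 5 of 6 were over the mark and the lowest tissue lay above the median line. Values filled most of the range, and only 1 line lay within 0.5 of the mark. A second HOXB7 probe set was over log2 5 on 1 array, primary line 4 at 6.89.

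HOXB4 and HOXB6, of the same cluster, were found over log2 5 only in lines that also carried HOXB7. HOXB4 was over the mark in primary lines 6 (5.35), 22 (5.75) and 23 (5.41) and metastatic line 3 (5.57), and HOXB6 in primary lines 4 (7.84), 22 (5.47) and 23 (5.24). Neither exceeded it in a tissue, where the highest values were 4.39 for HOXB4 and 4.18 for HOXB6, although HOXB7 was over the mark in 5 of the 6. A second HOXB6 probe set reached at most 2.41 and was at 1.51, 1.68 and 1.78 in primary lines 4, 22 and 23. Across the 27 lines the 3 HOXB genes varied together, with Pearson r of 0.86 for HOXB6 and HOXB7, 0.81 for HOXB4 and HOXB7 and 0.72 for HOXB4 and HOXB6. These coefficients describe 27 lines that share an array type and normalization, and carry no test. With the arrays of dog 22 averaged, HOXB4 was over the mark in 3 of the lines and HOXB6 in 2, so most of their values lie under it. Primary line 4 lay apart for HOXB6 (7.84, next line 5.24) and HOXB7 (10.59, next line 9.37), and its part in the coefficients was not tested.

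HOXD10 followed a different set of lines. It was over log2 5 in 8 of 24 primary lines, 1 of 3 metastatic lines and 2 of 6 tissues. The primary lines ran from 2.02 through a median of 4.11 to 9.34, led by primary lines 20 (9.34), 24 (9.04) and 14 (7.97). Of the tissues, tissue 6 stood highest at 7.997, tissue 2 was at 5.28, and the other 4 ran from 2.34 to 4.73. Of the 27 lines 3 carried both HOXB7 and HOXD10 over the mark, 9 HOXB7 only, 6 HOXD10 only and 9 neither, and r between the genes was -0.14. The gene identifier of the HOXD10 probe set used here is no longer in the current gene table. A second HOXD10 probe set, whose identifier is current, was over log2 5 on 3 arrays, primary lines 14 (5.21) and 24 (6.33) and tissue 6 (5.25), all among the highest on the first, while primary line 20 was at 4.24 on it.

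HOXA4, an anterior trunk gene next to HOXA5, was over log2 5 in 14 of 24 primary lines, 2 of 3 metastatic lines and 6 of 6 tissues. Of the 27 lines 10 carried both HOXA4 and HOXB7, 6 HOXA4 only, 2 HOXB7 only and 9 neither. Across the lines HOXA4 was correlated with HOXB7 at 0.62 and with HOXA5 at 0.46, and HOXA5 with HOXB7 at -0.17. The coefficient was lower for the neighbours HOXA4 and HOXA5 than for HOXA4 and a gene of the B cluster, a difference that was not tested.

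**Figure D2:**
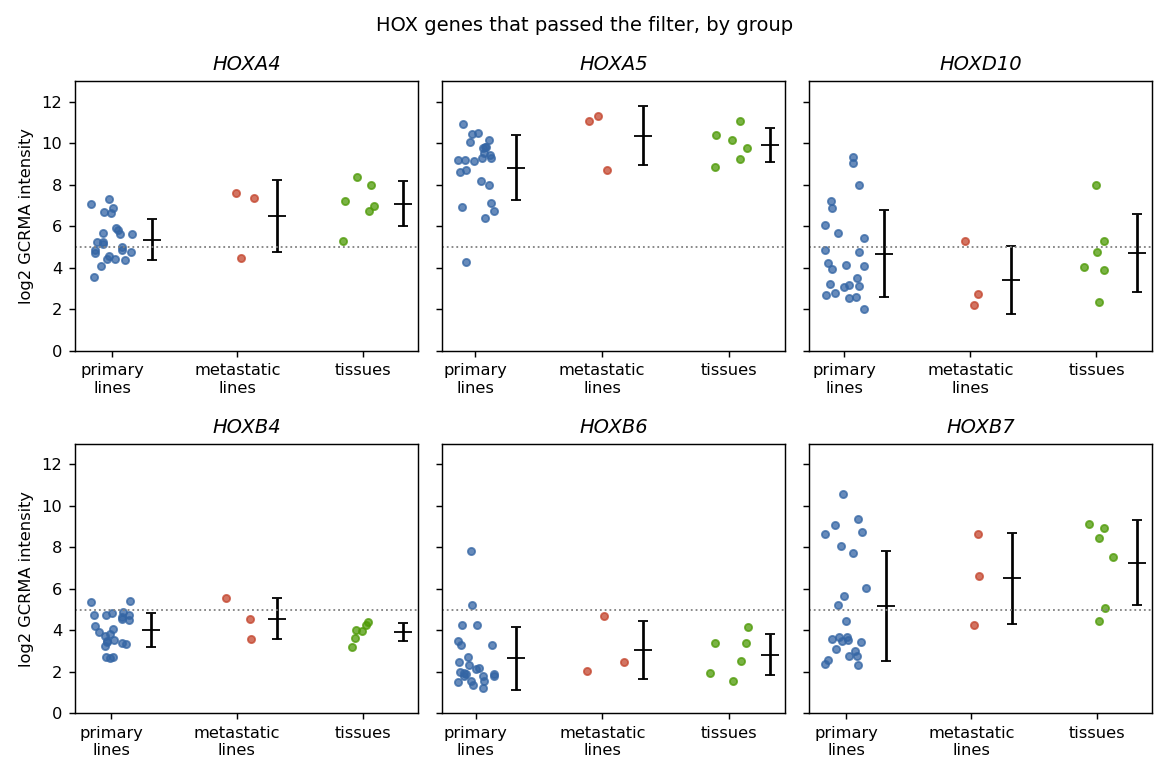
Log2 GCRMA intensity of the 6 HOX genes that passed the filter, 1 panel per gene, with a point for each of 24 primary lines, 3 metastatic lines and 6 tissues, a bar at the mean and whiskers of 1 SD; the dotted line marks log2 5. HOXA5 lies over the line in all but 1 sample, HOXB7 and HOXD10 spread on both sides of it, and HOXB4 and HOXB6 lie mostly under it.

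Among the cofactors, PBX3, a TALE partner of HOX proteins, was over log2 5 on 34 of 34 arrays and was the only gene of the set over the mark in every line. Its primary lines ran from 5.17 through 7.90 to 9.11, with primary line 4 lowest, its metastatic lines were at 5.64, 8.06 and 8.48, and its tissues ran from 7.74 through 8.27 to 8.94. The other measured PBX genes, PBX2 and PBX4, reached at most 4.39 and 3.70. MEIS2, known from limb and craniofacial development, was over the mark on 32 of 34 arrays. It ran from 4.68 through a median of 9.77 to 11.47 in primary lines and stood at 12.89, 9.04 and 11.20 in metastatic lines 1 to 3. The lines low in MEIS2 were primary lines 25 (4.68), 12 (5.19), 22 (5.58), 3 (6.75) and 10 (7.65), and every other line array was at 8.93 or higher. MEIS3 lay near the mark throughout, at 4.80 ± 0.68 (SD, n = 24) in primary lines and 4.86 ± 1.16 (n = 6) in tissues.

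Of the T-box genes, TBX4 and TBX18 had signal, each in a single line. TBX4 was at 5.82 in primary line 7 and next highest in metastatic line 3 at 4.48. TBX18, known from the epicardium and from smooth muscle precursors, was at 5.63 in primary line 1 and next highest in primary line 2 at 3.12. The second TBX4 probe set reached at most 2.97, also in primary line 7, and the other TBX18 probe sets at most 4.90 and 2.57. The forelimb gene TBX5 reached at most 2.24 and TBX15, which shapes the shoulder blade, at most 3.59. The combination of genes over log2 5 differed from line to line. The 28 line arrays showed 20 combinations, and the 2 most common were found on 3 arrays each: HOXA5 with MEIS2 and PBX3 in primary lines 2, 3 and 5, and the same genes with HOXA4 in primary lines 8, 9 and 17.

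The comparison named in the design of the series is that of cultured lines with tumour tissue. HOXA4 was the only 1 of the 10 position genes tested that was called in this comparison, and it was lower in lines. The primary lines ran from 3.55 through a median of 5.20 to 7.31 and the tissues were at 6.96, 5.29, 7.99, 8.36, 7.20 and 6.74. The groups overlapped, since tissue 2 lay close to the median line and the highest line lay above 4 of the tissues. HOXA4 averaged 5.35 ± 1.00 (SD, n = 24) in lines and 7.09 ± 1.08 (n = 6) in tissues, a difference of -1.73 (SE 0.48, limma adjusted p = 0.00823), or 3.33-fold. An exact two-sided permutation test gave p = 0.000862, or 0.00862 after Benjamini-Hochberg adjustment over the 10 genes. A second HOXA4 probe set differed by -0.93 (limma adjusted p = 0.0174), below the required 2-fold. The call was lost within title prefix 3, on primary lines 22 and 23 against the tissues (-1.25, limma adjusted p = 0.356). Adding the prefix to the model gave a difference of the same size (limma adjusted p = 0.334). The primary lines of title prefix 1 averaged 4.10 ± 0.40 (SD, n = 4) and those of title prefix 2 averaged 5.60 ± 0.91 (n = 19).

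Of the 10 position genes tested, 1 was called, lower in lines, which is 10% against 14.6% of the 7849 genes tested (1148 called). Lower in lines were 711 genes, or 9.06%, and higher 437, or 5.57%. At an unadjusted p under 0.05 the numbers were 2 of 10 and 2787 of 7849 (35.5%). The median difference of the 10 was -0.12, against -0.05 over all genes. The count of position genes called was therefore near the background of the comparison.

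MEIS2 and HOXB7 had differences larger than that of HOXA4 without passing the test. MEIS2 was at 10.34, 9.57, 4.26, 8.40, 5.23 and 6.94 in tissues 1 to 6, so tissues 3 and 5 lay with the lowest lines and tissues 1 and 2 lay with the bulk of the lines. The difference was 1.90 (SE 0.84, limma adjusted p = 0.0995; exact permutation p = 0.0331, adjusted over 10 genes 0.166), a second probe set gave 1.12, and the difference was 0.28 within title prefix 3. Without tissue 1 it was called (2.48, limma adjusted p = 0.0440). HOXB7 differed by -2.11 (SE 1.11, limma adjusted p = 0.174), and within title prefix 3 it turned to 1.55, with primary lines 22 and 23 at 9.01 and 8.63. With array weights it was called (-3.17, limma adjusted p = 0.0122).

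The remaining tested genes differed between lines and tissues by less than these. HOXA5 differed by -1.10 (95% interval -2.41 to 0.20, limma adjusted p = 0.222) and PBX3 by -0.62 (-1.55 to 0.31). HOXB4, HOXB6, HOXD10, MEIS1 and MEIS3 differed by 0.12, -0.17, -0.03, 0.16 and -0.06. The interval of HOXD10 ran from -1.86 to 1.79, so a change of more than 3-fold in either direction lies inside it. Within title prefix 3 several of these genes moved, though none was called. HOXA5 stood at -2.09, PBX3 at 0.92, HOXB4 at 1.67, HOXB6 at 2.52, MEIS1 at -0.09 and MEIS3 at 0.93.

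The tissues held other cells as well as tumour cells. In bulk samples fewer cells of a type and less RNA per cell cannot be told apart. Of 12 monocyte and macrophage markers 10 to 12 were over log2 5 in each tissue against 0 to 3 in the primary lines, and log2 of their summed intensity ran from 12.4 to 14.7 in tissues and from 5.79 to 13.8 in primary lines. The endothelial markers over log2 5 numbered 5 to 9 of 11 in tissues and 0 to 6 in primary lines, with summed values of 10.8 to 14.9 and 6.47 to 15.1. The highest line on both lists was primary line 4, with 3 of 12 macrophage markers over log2 5. Its macrophage sum rests mainly on LAPTM5, which reached 13.7 in the primary lines. C1QA, C1QB, C1QC, CD163, CSF1R and AIF1 were over log2 5 in 0 of 24 primary lines. The part of the other cells of the tissues in the differences of HOXA4, MEIS2 and HOXB7 was not tested.

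**Figure D3:**
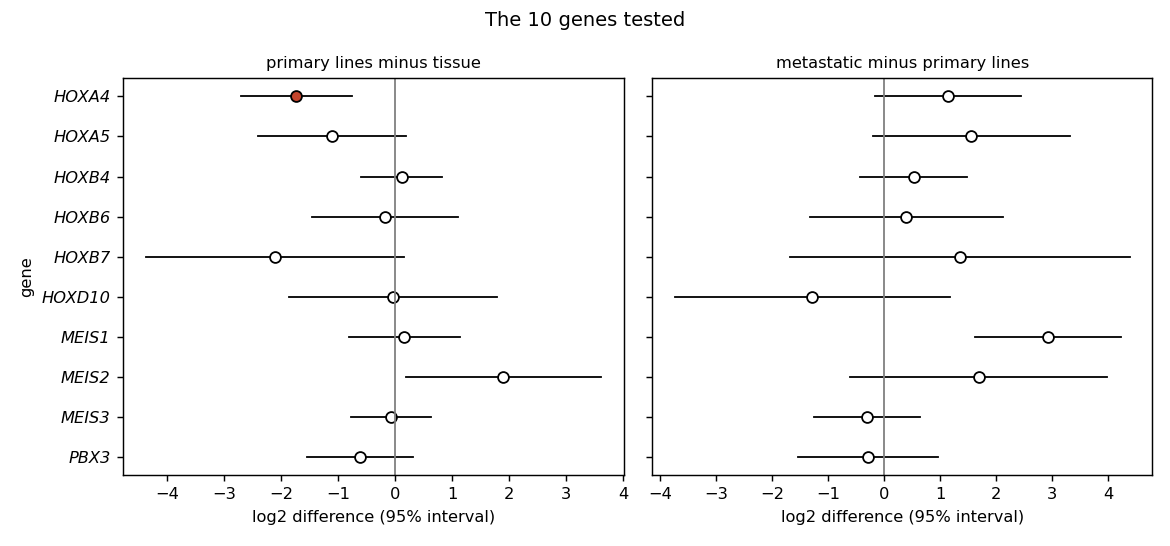
Log2 difference (point) with its 95% interval (line) for the 10 tested genes, as primary lines minus tissue (left) and metastatic minus primary lines (right), from limma; the filled point passed the test. HOXA4 at -1.73 is the only filled point, and the MEIS1 interval in the right panel, from 1.63 to 4.23, lies away from 0 although its adjusted p of 0.188 missed the threshold.

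For dog 22 and dog 23, lines and tumour tissue of the same animal could be set side by side. HOXB7 was high in all 3 samples of dog 22, at 8.45 in primary line 19, 9.01 in primary line 22 and 8.95 in tissue 5. In dog 23 it was at 2.78 in primary line 20 and at 9.15 in tissue 6, the highest of the tissues. HOXD10 was the reverse in order: primary line 20 of dog 23 was the highest of all lines at 9.34 and its tissue was the highest of all tissues at 7.997, while dog 22 stood at 5.71 and 5.18 in its lines and 4.03 in its tissue. Thus the tumour of dog 23 shared high HOXD10 with its line but not HOXB7.

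MEIS2 differed between the lines of dog 22. It was at 10.50 in primary line 19 and 5.58 in primary line 22, and tissue 5 was at 5.23, near primary line 22. The difference of -4.92 between the line arrays was matched or exceeded by 0.484% of the genes tested, and the second MEIS2 probe set moved the same way (6.51, 2.61 and 2.66). HOXB4 (3.23 and 5.75) and HOXB6 (3.05 and 5.47) also differed between these lines, by more than log2 2, with tissue 5 at 3.65 and 2.52, near primary line 19. HOXA5 (8.67 and 8.52) and HOXD10 differed by less than 1. The arrays of these lines correlated at 0.92 over all genes tested, against a median of 0.88 between line arrays, and carried different title prefixes, 2 for line 19 and 3 for line 22. In dog 23 MEIS2 was at 9.73 in the line and 6.94 in the tissue, and HOXA4 at 5.24 and 6.74. HOXA4 was lower in the line than in the tissue in both dogs (5.24 and 6.05 against 7.20 in dog 22).

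**Figure D4:**
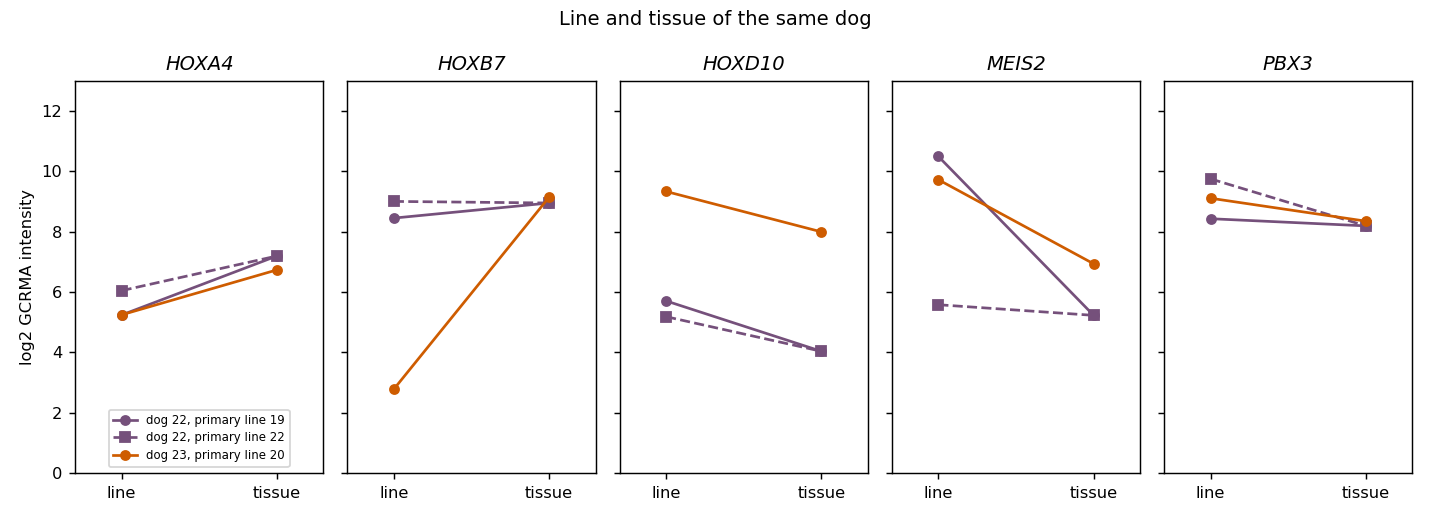
Log2 GCRMA intensity of 5 position genes in the lines and the tumour tissue of dog 22 (primary lines 19 and 22, tissue 5) and dog 23 (primary line 20, tissue 6), each line joined to the tissue of its dog. HOXB7 is level in dog 22 and rises from 2.78 to 9.15 in dog 23, while MEIS2 falls from 10.50 to 5.23 from primary line 19 to tissue 5 and is level from primary line 22.

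Lines from metastases were set against lines from primary tumours. MEIS1, a TALE partner of HOX proteins, had the largest difference of the position genes. It was at 7.09, 3.03 and 8.07 in metastatic lines 1 to 3, and in the primary lines it ran from 2.46 through a median of 2.96 to 7.23. The groups overlapped, since metastatic line 2 lay among the primary lines and primary line 7 lay among the metastatic lines. The difference of 2.93 (SE 0.64) had an unadjusted limma p of 6.41e-05 and an adjusted p of 0.188. An exact two-sided permutation test gave p = 0.00889, or 0.0889 adjusted over the 10 genes. Individual lines decided this call: without metastatic line 2 the difference was 4.45 (limma adjusted p = 0.000153), without primary line 7 it was 3.11 (limma adjusted p = 0.00118), and without metastatic line 3 it was 1.93 (limma adjusted p = 0.614). With array weights it was 3.07 (limma adjusted p = 0.0212). MEIS1 passed the filter only through primary line 7 and metastatic lines 1 and 3, so these p-values are no support for a difference between the groups.

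None of the 10 position genes was called in this comparison, against 1 of 7849 genes (0.0127%), and at an unadjusted p under 0.05 limma gave 1 of 10 and 534 of 7849 (6.8%). HOXA4, HOXA5, HOXB7 and MEIS2 had differences of 1.14, 1.56, 1.35 and 1.69 and HOXD10 of -1.28, with limma adjusted p between 0.769 and 0.898. The median of the 10 was 0.83, against 0.05 over all genes. With 3 metastatic lines the intervals were wide: that of HOXA5 ran from -0.19 to 3.31 and that of HOXB7 from -1.68 to 4.38.

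Lines from Rottweilers (n = 10) and Golden Retrievers (n = 7) were compared with sex as a covariate. None of the 10 genes was called, against 2 of 7849 (0.0255%), and 2 of 10 against 850 of 7849 (10.8%) had an unadjusted limma p under 0.05. These 2 were cofactors. MEIS2 ran from 4.68 through 9.03 to 10.71 in Rottweiler lines and from 8.04 through 9.73 to 11.25 in Golden Retriever lines. The difference was -1.95 (SE 0.84, limma adjusted p = 0.435). The value of 8.04 is the average of both line arrays of dog 22, a Golden Retriever. Primary line 19 was at 10.50 and primary line 22 at 5.58, so low MEIS2 was not confined to Rottweiler arrays. PBX3 ran from 5.90 through 7.35 to 8.37 and from 6.39 through 8.06 to 9.11, with a difference of -1.10 (SE 0.45, limma adjusted p = 0.419). The breeds overlapped for both genes. The differences of the HOX genes ran from -0.51 (HOXB4) to 0.71 (HOXA5).

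Some lines departed from the rest in several position genes together. MEIS1 was over log2 5 in primary line 7 (7.23), metastatic line 1 (7.09) and metastatic line 3 (8.07) and in no tissue, and the next highest line was primary line 13 at 3.39. Primary line 7 and metastatic line 3 came from Rottweilers and metastatic line 1 from a Rhodesian Ridgeback, and all 3 carried title prefix 2. These lines were looked at because of their MEIS1 value, so what follows describes single lines and carries no test.

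On the probe sets read here, the 3 lines were also the 3 highest of the 27 for HOXA2, TBX4 and HOXA5. With MEIS1, by which the lines were picked, these were 4 of 39 position genes (10.3%). Of all tested genes 72 of 7849 (0.917%) had these lines as the 3 highest, and of the position genes tested 2 of 10 (20%), HOXA5 and MEIS1. MEIS1 counts among both shares of position genes only because the lines were picked by it. The 39 also include genes that did not pass the filter. The shares are therefore no support for a likeness of the position genes in these lines. HOXA2 was at 3.81, 5.09 and 4.45 in primary line 7, metastatic line 1 and metastatic line 3, with the next line at 3.30. TBX4 was at 5.82, 2.10 and 4.48, with the next at 2.03, so metastatic line 1 led by little. On the second TBX4 probe set the lines were at 2.97, 2.17 and 2.39, and primary line 17 at 2.51 lay above both metastatic lines. HOXA2 and TBX4 did not pass the filter, and most of these values lie under log2 5. HOXA5 was at 10.95, 11.31 and 11.08, with the next at 10.48.

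Some limb and girdle patterning genes had their lowest values in these lines. IRX5, an Iroquois homeobox gene of the limb bud, was at 2.12, 3.03 and 2.01, and the lowest of the other 24 lines was primary line 4 at 6.01. IRX3 was at 4.10, 2.69 and 3.19, with the next lowest at 4.90, and MSX1 at 3.16, 3.08 and 2.23, with the next lowest at 3.49. These lines were the 3 lowest for 3 of the 11 tested limb and girdle genes, and for 41 of all 7849 tested genes (0.522%). The other 8 limb and girdle genes did not have them lowest. DLX6, for example, was at 2.58, 2.45 and 2.13, inside the range of the other lines (1.92 to 6.02). SHOX2, a gene of the proximal limb, was at 1.24, 3.39 and 1.38 against a median of 5.29 in the other lines, and DLX5, an osteoblast and limb factor, at 1.47, 4.98 and 1.73 against 7.02. Primary line 4 lay below metastatic line 1 for both, at 2.07 and 2.56. The bone collagen COL1A1 stood at 13.87, 13.53 and 13.40, within the range of the other lines. KRT18, a keratin of simple epithelia, was at 9.03, 13.51 and 7.02, with the next highest, primary line 4, at 6.16. IRX5, IRX3, MSX1 and KRT18 were named after their values were seen.

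**Figure D5:**
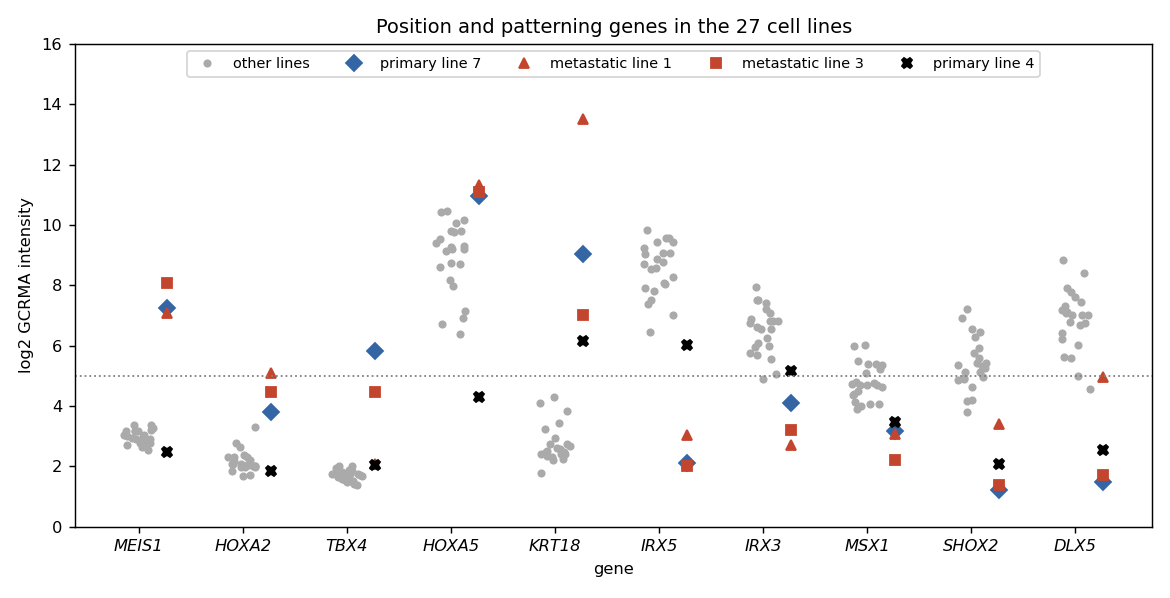
Log2 GCRMA intensity of 10 position, patterning and marker genes in the 27 lines, with primary line 7, metastatic lines 1 and 3 and primary line 4 drawn as large symbols and the other lines as grey points; the dotted line marks log2 5. Primary line 7 and metastatic lines 1 and 3 lie above the other lines for MEIS1, HOXA2 and HOXA5 and below them for IRX5, from 2.01 to 3.03.

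Primary line 4 departed in another way. It had the highest HOXB7 (10.59) and HOXB6 (7.84) of the lines and the lowest HOXA5 (4.30), PBX3 (5.17), MEIS1 (2.46) and MEIS3 (3.25). The highest other line was at 9.37 for HOXB7 and 5.24 for HOXB6. Endothelial markers were high in it, with KDR at 10.81 beside PECAM1 and EMCN, while VWF was at 3.02, and 6 of 11 endothelial and 3 of 12 macrophage markers were over log2 5. COL1A2 was the lowest of the lines at 11.13. Which cells of the line carry these markers, and their part in its HOX values, were not tested. Leaving the line out changed no call of a position gene in the 2 comparisons it enters, those with tissues and with metastatic lines.

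Primary lines 25 and 12 shared low MEIS2 (4.68 and 5.19) with high HOXA5 (10.48 and 10.45), HOXB7 (9.37 and 8.08) and HOXD10 (6.07 and 7.23), and are among the 3 lines with both HOXB7 and HOXD10 over the mark. Primary line 25 was also the only line with HOXA7 over it. Tissue 3 had the same pair of features, MEIS2 at 4.26 and HOXA7 at 5.04, with HOXB7 at 4.44. Primary line 6 was the only sample with PITX1, a hindlimb gene, over log2 5 (6.47, next highest 4.41), and it had HOXA4 at 7.31, the highest of the primary lines, with HOXB7 at 9.10 and TBX4 at 1.82.

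Other genes of position and patterning were read from 5 lists. They are read against the background of lines and tissues, in which 9.06% of all tested genes fell and 5.57% rose. In the limb and girdle list 22 of 25 genes were on the array and 11 were tested, of which 0 rose and 4 fell in lines against tissues (median -0.98, against -0.05 over all genes). DLX5 (-2.91, SE 0.75), TWIST1 (-2.85, SE 0.67) and DLX6 (-2.65, SE 0.55), factors of limb mesenchyme and bone, had the largest differences. DLX6 was over log2 5 in 1 of 24 primary lines and 3 of 6 tissues, so its lines were mostly near background. It passed the filter mainly through the tissues, so its call is no support for a change of the list. In the craniofacial list 0 of 8 tested genes rose and 2 fell (median -1.13), LHX8 and MSX1. MSX1, at -1.13, stands on both lists. LHX8 was over log2 5 in 1 of 24 primary lines and 2 of 6 tissues. It too passed the filter mainly through the tissues, so its call is no support for a change of the list. ALX1, a gene of head mesenchyme, was over log2 5 on 20 arrays, and OTX1 on 0. SHOX2 was over it on 20 arrays and EMX2, a gene of the shoulder girdle, on 8.

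Retinoic acid is a known inducer of HOX clusters, and CDX factors are another. Of 6 tested genes of the retinoic acid and CDX list 4 fell and 0 rose (median -1.79): ALDH1A1, which makes retinoic acid, CRABP1, which binds it, and the receptors RARB and RXRB. ALDH1A1 ran from 1.47 through a median of 2.06 to 4.32 in primary lines and from 4.43 through 8.67 to 11.86 in tissues. It was over log2 5 in 0 of 24 primary lines and 5 of 6 tissues, so its level in lines was near background and no size is given for the difference. CRABP1 was over the mark in 2 of 24 primary lines and 4 of 6 tissues. These 2 genes passed the filter mainly through the tissues, so their calls are no support for a change of the list. RARB fell by 2.52 on the log2 scale and RXRB by 1.07. RXRB lay near the mark, over log2 5 in 2 of 24 primary lines and 3 of 6 tissues. In the list of Polycomb and Trithorax regulators, which hold HOX genes off or on, 0 of 22 tested genes rose and 2 fell. These were KDM6A at -2.44 (SE 0.52) and JARID2 at -2.19 (SE 0.37), and the median of the list was -0.17. The fit held no sex term, and the arrays were 13 male and 11 female in primary lines but 1 male and 5 female in tissues. The part of sex in these differences, that of KDM6A among them, was not tested. Of the other TALE cofactors 0 of 2 tested were called, with 14.6% of all genes called in this comparison.

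The calls of the 5 lists did not hold within title prefix 3. Of the 47 genes tested over the lists 11 were called in lines against tissues. Within title prefix 3, where 2 lines met 6 tissues, limma called 0 of the 11, with 5 at an unadjusted p under 0.05, and with title prefix as a covariate it called ALDH1A1 alone (adjusted p = 0.00035). In both of these fits DLX5 stood at -2.30, TWIST1 at -2.20, DLX6 at -2.004, KDM6A at -1.70, JARID2 at -1.46, RARB at -4.10, CRABP1 at -1.60, LHX8 at -0.56, MSX1 at -0.31 and RXRB at -0.68. LHX8, MSX1, RARB and RXRB also lost their call in other fits, among them those without tissue 4 (LHX8, MSX1 and RXRB) or tissue 3 (MSX1 and RARB). Between metastatic and primary lines 0 of the 47 genes were called in limma, with 7 at an unadjusted p under 0.05 (6.8% over all genes), and between breeds 0, with 5 (10.8% over all genes). IRX5 had the largest difference between metastatic and primary lines among them (-3.63, SE 1.06, limma adjusted p = 0.506), in which metastatic lines 1 and 3 and primary line 7 were the low samples. The macrophage and endothelial values of the tissues given above stand beside the differences between lines and tissues, and their part was not tested.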

How the data were processed

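The deposited values were intensities, 1 per probe set and array, which the authors made with GCRMA per the submitters' processing notes; version and settings are not given in the sources used. Intensities were on a linear scale as deposited, and log2 was taken after a floor at 1, under which 0 values lay. Of 43035 probe sets 175 controls were left out; 29254 had a single symbol, 439 several and 13167 were unlisted. Gene names came from the platform annotation, and 27680 probe sets matched the UU_Cfam_GSD_1.0 gene table by gene identifier, and this changed 0 symbols. The filter asked for log2 over 5 on 3 or more of 34 arrays (18591 probe sets passed), and the one of highest mean stood for each of 7849 genes. For a position gene with none kept, the probe set with the highest single value was read.

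Both line arrays of dog 22 were averaged. Linear models were fitted in limma 3.58.1 under R 4.3.3 (lmFit, then eBayes), with the 3 groups in 1 fit and Benjamini-Hochberg adjustment over all genes tested; the script was tested on simulated data. An adjusted p under 0.05 was called, with at least 2-fold also required for lines against tissues. Exact permutation tests used scipy 1.17.1. Apart from those of dog 22, lines are labelled as from separate dogs and are single cultures, so p-values measure the spread between these samples. Array number, not depth, limits precision.

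The pairing of lines and tissues comes from the labels: deviations from group means correlated at 0.16 in dog 22 and -0.18 in dog 23. The position genes and gene lists were chosen with earlier results of these data known. Values were given for position genes called in a comparison, for set members of each family and for those over log2 5 in few lines, and up to 3 genes of each list. Alternatives changed the filter, normalization, pseudocount, probe set, array weights, title prefix, block and the samples kept; leaving out primary lines 7, 9, 19 or 22 was added after seeing the data. Deposited arrays hold no sequence and no genome build, so none is printed.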

Additional observations from a re-analysis of the deposited data

Results flagged for a closer look

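In 42 sets of 4 to 10 samples, each a position gene over log2 5 somewhere in the tissues, the Rottweiler lines or the Golden Retriever lines, 7 had a sample far from the others by Dixon's criterion at 95%. Chance gives about 1 in 20, but the number is not read against it, since genes entered for being over log2 5 on some array, TBX4 through primary line 7 alone and TBX18 through primary line 1 alone. Primary line 7 stood above the other Rottweiler lines (n = 10) for MEIS1 (7.23, others 2.55 to 3.17), TBX4 (5.82, others 1.49 to 2.01) and HOXA2 (3.81, others 1.70 to 2.78). Primary line 3 was lowest of the Rottweiler lines for MEIS3 (3.71, others 4.43 to 5.04). Of the Golden Retriever lines (n = 7), primary line 20 was highest for HOXD10 (9.34, others 2.70 to 5.44) and primary line 1 for TBX18 (5.63, others 1.66 to 2.25). The average of both line arrays of dog 22 was highest for HOXB6 (4.26, others 1.79 to 2.72). No tissue was far from the others for any of the genes.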

How the results depend on the processing

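The 1 call in lines against tissues, HOXA4, was made under all but the title prefix fits: 0 position genes were called with title prefix as a covariate and within title prefix 3, where 2 lines met 6 tissues, which leaves fewer samples. Array weights gave 2 calls, adding HOXB7, and the fits that left out a sample gave 1 to 2, the second being MEIS2 without tissue 1. Between metastatic and primary lines 0 calls became 1, MEIS1, with array weights, and 0 to 1 when a sample was left out; between breeds all fits gave 0. Dog as a random block for the pairing (estimated correlation 0.13) gave 1 call for lines against tissues, HOXA4 at -1.71 (limma adjusted p = 0.00749), and 0 for metastatic lines, and changed no call. Under both title prefix fits HOXB7 turned from -2.11 to 1.55, HOXB6 from -0.17 to 2.52 and PBX3 from -0.62 to 0.92. MEIS1 and MEIS3 also changed sign in them, to -0.09 and 0.93. The number of position genes with signal was 14 at log2 5 and also after quantile normalization, 19 at log2 4, 9 at log2 6 and 8 at log2 7. The cause of the other changes was not tested. Dim genes, of which 25 never exceeded log2 5, allow no statement about change.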

Other observations

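Some genes followed single position genes closely across the 27 lines; they were picked after their values were seen, over all tested genes, and the coefficients are descriptions without a test. The gene most like HOXB7 was CXADR, a cell adhesion receptor (Pearson r = 0.91), and the 3 most like it included HOXB6. MEIS1 was most like SLC14A1, a urea transporter (0.94), and most opposite to IRX5 (-0.89). Both rest on the 3 lines with MEIS1 signal. MEIS1, MSTO1 and SLC14A1 were the only tested genes over log2 5 on exactly those 3 arrays of 34, and CLMP and IRX5 the only ones over it on every array except those. HOXA5 was most like JUP (0.86), which encodes the junction protein plakoglobin, and HOXB6 most opposite to FBN1 (-0.89) and DCN (-0.88), which encode the matrix proteins fibrillin and decorin. Primary line 4 was highest for HOXB6 (7.84, next line 5.24) and HOXB7 (10.59, next line 9.37) and lowest for HOXA5 (4.30, next line 6.39). How far the coefficients of these 3 genes rest on that line was not tested.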
